A study of Homo sapiens with 6 samples.

Results

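The members are 10 genes, 7 cyclins and the 3 kinases that act in the G1 phase, taken from the 58735 genes of the deposited tables by their symbols: CCND1, CCND3, CCNE1, CCNE2, CCNA2, CCNB1, CCNB2, CDK2, CDK4 and CDK6. They were followed in MDA-MB-231, an established human triple-negative breast cancer cell line of wild-type genotype per the labels. Cells were stained with PKH26, a membrane dye diluted at each division, grown in complete medium for 12 days and sorted. Slow-cycling cells (SCC) are the brightest sorted fraction, and rapid-cycling cells (RCC) have moderate dye by the protocol text but low dye by the sample characteristics. Each group had 3 biological replicates, 1 library each, and both groups carried the dye and went through the same sort. RNA came from many sorted cells at once, so fewer cells in a phase and less mRNA per cell cannot be told apart.

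Cyclins are the activating subunits of cyclin-dependent kinases (CDKs), and the cyclins followed here act at different stages of the cell cycle. D-type cyclins bind CDK4 and CDK6 in response to growth signals and start the phosphorylation of the RB protein, which frees E2F transcription factors. Cyclin E with CDK2 then carries the cell into S phase, cyclin A acts through S phase and G2, and cyclin B with CDK1 drives mitosis. Much of this control acts on protein, through timed destruction of the cyclins, phosphorylation of the kinases and inhibitor binding, which mRNA counts do not measure.

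None of the 10 members passed the test between SCC and RCC, although all 10 passed the filter on low counts. edgeR's quasi-likelihood test called 0 members at a Benjamini-Hochberg adjusted p under 0.05, while 2.07% of the 15881 tested genes were called, 1.69% higher and 0.378% lower in SCC. At an unadjusted p under 0.05 there were 3 members, against 19.7% of all tested genes. CCND3 had the higher level in SCC (11.4% of all genes), and CCNE2 and CDK6 had the lower (8.27%). DESeq2 called 1 member, CCNE2, and limma called 0 on FPKM, the deposited values scaled by gene length and library size. SCC and RCC libraries were fully separated in 4 of the 10 members, against 27.8% of all tested genes. The SCC libraries lay above the RCC libraries in CCND3 (14.4% of all genes) and below them in CCNE2, CDK6 and CCNA2 (13.4%). The median log2 fold change of the members, SCC over RCC, was -0.11, and that of all tested genes was 0.00.

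**Figure D1:**
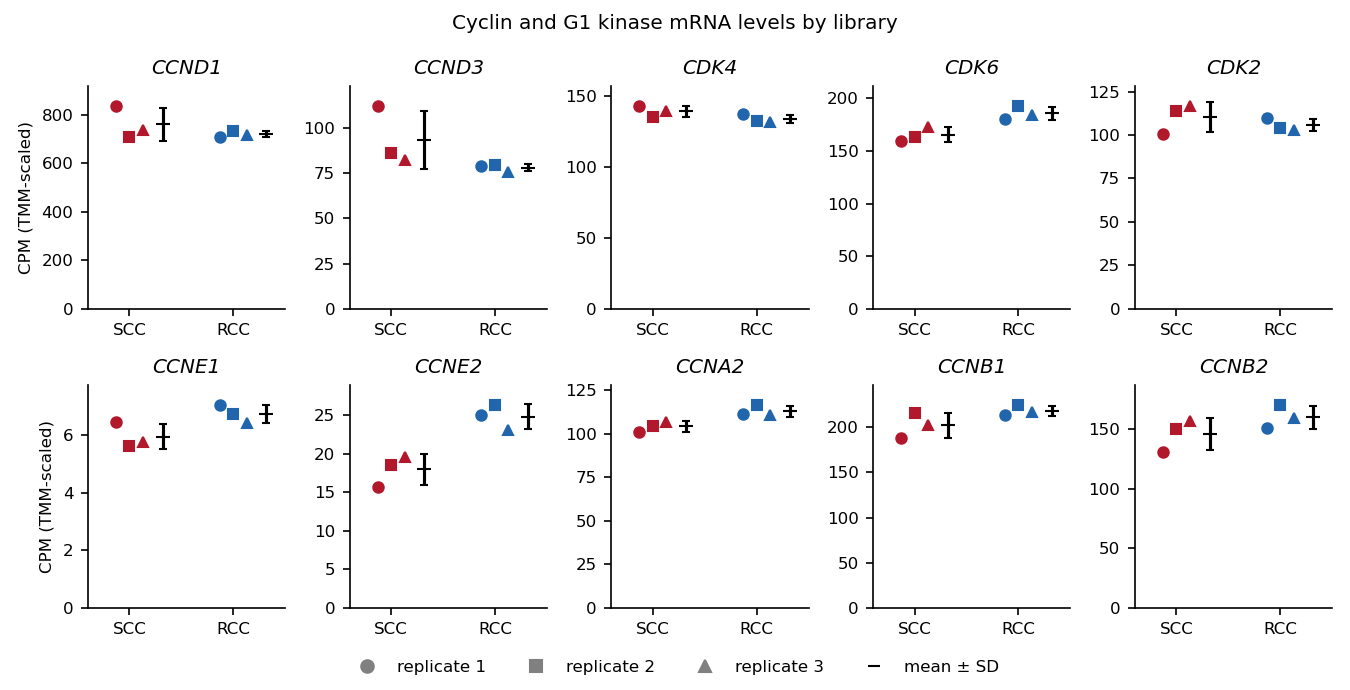
Each panel plots 1 member in CPM (counts scaled to a common library size by TMM, vertical axis from 0) in the 3 SCC and 3 RCC libraries, with symbols for replicates and the mean ± SD beside them. CCNE2 sits at 15.8 to 19.6 CPM in SCC and 23.0 to 26.3 in RCC, while most other members differ little between the groups.

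Summed counts per library ran from 17655855 to 27831824. All 5 markers expected of the line were present (VIM, CD44, EGFR, FOSL1 and AXL, each at 33.3 FPKM or more in every library), and ESR1, PGR, ERBB3 and CDH1 were at or below 0.501 FPKM. Markers of leukocytes, endothelium and red cells were at or below 0.416 FPKM in every library. SCC replicate 1 stood apart by GC content: its median log2 deviation from the mean of the 6 libraries was 0.40 in the tenth of genes richest in GC and -0.24 in the poorest, and the other 5 libraries lay between -0.16 and 0.10. For that reason the values without this library, and with an offset for GC content, stand beside the members they move.

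CCND1 (ENSG00000110092, chromosome 11, 69641087 to 69654474, plus strand) encodes cyclin D1, the main D-type cyclin of breast epithelium. It was at 836, 708 and 739 CPM in SCC replicates 1 to 3 and at 709, 735 and 719 CPM in RCC replicates 1 to 3. SCC replicates 1 and 3 were above all RCC libraries and SCC replicate 2 was below all of them, so the groups overlapped. Its log2 fold change of 0.08 (standard error 0.07) had a 95% interval of -0.08 to 0.24 (edgeR adjusted p 0.556). Without SCC replicate 1 it was 0.01.

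CCND3 (ENSG00000112576, chromosome 6, 41934933 to 42050357, minus strand) encodes cyclin D3, which binds the same kinases. Its level was 112, 86.1 and 82.1 CPM in SCC and 78.8, 79.6 and 76.0 CPM in RCC, in replicate order. All 3 SCC libraries were above the RCC libraries, and SCC replicate 1 was far above the other two. Its log2 fold change of 0.26 had a 95% interval of 0.02 to 0.50 (edgeR adjusted p 0.221). Leaving out SCC replicate 1 gave 0.11, and the GC offset gave 0.15. The third D-type gene, CCND2, was at the floor of detection, with 9, 1 and 0 counts in the SCC libraries and 0 in each RCC library. A count of 0 over the 3 RCC libraries allows up to 0.0489 CPM, counting error only.

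CDK4 (ENSG00000135446, chromosome 12, 57747727 to 57756013, minus strand) and CDK6 (ENSG00000105810, chromosome 7, 92604921 to 92836594, minus strand) encode the kinases that D-type cyclins activate. CDK4 was at 143, 135 and 139.6 CPM in SCC and at 137, 132 and 132 in RCC. The groups overlapped, with a log2 fold change of 0.06 and a 95% interval of -0.08 to 0.20 (edgeR adjusted p 0.629). With the GC offset it was -0.01. CDK6 was at 159.6, 163 and 173 CPM in SCC and at 180.5, 193 and 184 in RCC. Every SCC library was below every RCC library, with a log2 fold change of -0.17 and a 95% interval of -0.31 to -0.02 (edgeR adjusted p 0.200). With the GC offset the value was -0.06. Exons of CDK4 share 43.2% of their bases with TSPAN31 on the opposite strand. TSPAN31 averaged 9.63 ± 0.70 CPM over the SCC libraries and 7.88 ± 0.75 over the RCC libraries (SD, n = 3). Whether counting used strand was not stated, so the level of CDK4 is uncertain. The part of TSPAN31 reads in the CDK4 counts was not tested. Smaller shares of exon bases overlap an opposite-strand gene in CDK2 (14.5%, AC025162.1), CCND1 (10.3%, LTO1) and CCNA2 (9.08%, EXOSC9).

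**Figure D2:**
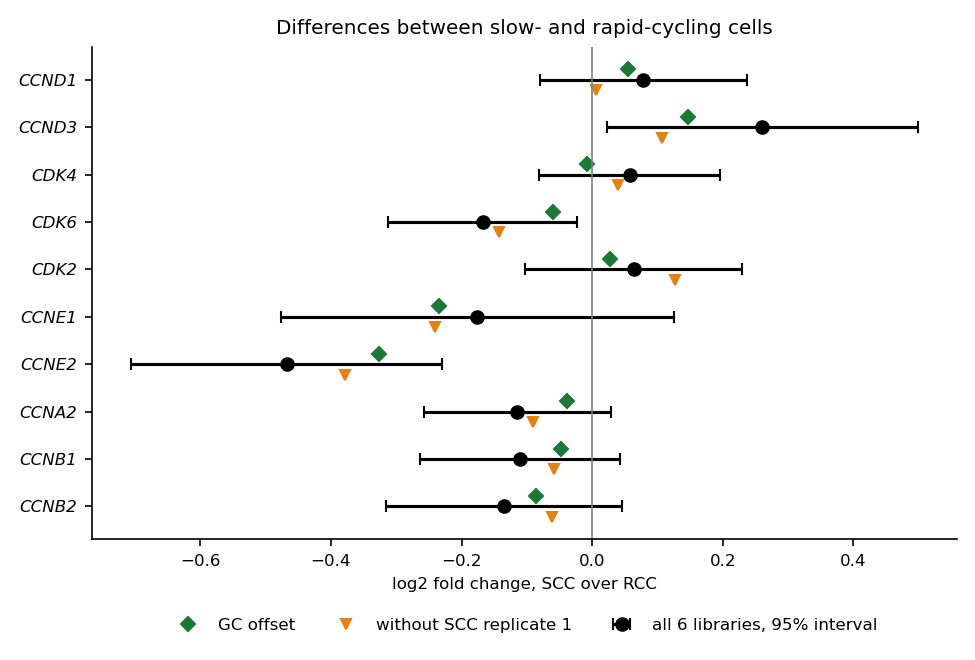
Points give the log2 fold change (horizontal axis, SCC over RCC) of each member, with the 95% interval of the fit over all 6 libraries, and coloured symbols give the value with the GC offset and without SCC replicate 1. All intervals but those of CCND3, CDK6 and CCNE2 include 0, and both alternatives place CCND3 nearer to 0, at 0.15 and 0.11.

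CCNE2 (ENSG00000175305, chromosome 8, 94879770 to 94896678, minus strand), which encodes cyclin E2, a partner of CDK2 at the entry into S phase, had the largest difference of the 10. It was at 15.8, 18.6 and 19.6 CPM in SCC and at 25.1, 26.3 and 23.0 CPM in RCC. The groups did not overlap: the lowest RCC library was above the highest SCC library. Means were 18.0 ± 2.0 CPM over the SCC libraries and 24.8 ± 1.64 over the RCC libraries (SD, n = 3), a fold of 0.723 with a 95% interval of 0.613 to 0.853. Its log2 fold change of -0.47 (standard error 0.11) just missed the threshold (edgeR adjusted p 0.0544). Over the 17 alternatives it ranged from -0.55 to -0.33 and its adjusted p from 0.0054 to 0.323, and it was called lower in 8 of them. Those 8 included the fit without SCC replicate 1 (log2 fold change -0.38, adjusted p 0.015), the fit without SCC replicate 2 (-0.51, 0.040) and the GC offset (-0.33, 0.035). Dropping SCC replicate 3 gave an adjusted p of 0.081, and dropping RCC replicate 1, 2 or 3 gave 0.218, 0.236 and 0.146, so CCNE2 stayed uncalled there. Exons of CCNE2 share 37.0% of their bases with INTS8, a subunit gene of the Integrator complex on the opposite strand. INTS8 averaged 67.6 ± 4.99 CPM over the SCC libraries and 68.7 ± 5.22 over the RCC libraries (SD, n = 3; log2 fold change -0.02). The part of INTS8 reads in the CCNE2 counts was not tested.

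CCNE1 (ENSG00000105173, chromosome 19, 29811898 to 29824308, plus strand) encodes cyclin E1, and CDK2 (ENSG00000123374, chromosome 12, 55966769 to 55972784, plus strand) the kinase of both E-type cyclins. CCNE1 was the member with the fewest counts, 406 in the SCC libraries together and 418 in RCC. Its level was 6.45, 5.62 and 5.79 CPM in SCC and 7.04, 6.74 and 6.43 CPM in RCC, so that SCC replicate 1 lay just above RCC replicate 3. For CCNE1 the log2 fold change was -0.18 with a 95% interval of -0.48 to 0.12 (edgeR adjusted p 0.483). That interval is the widest of the 10 and includes the value of CCNE2. CDK2 was at 101, 114 and 117 CPM in SCC and at 109.6, 104 and 103 in RCC. The groups overlapped, with SCC replicate 1 the lowest of the 6 libraries and the other two SCC libraries the highest. The log2 fold change of CDK2 was 0.06 with a 95% interval of -0.10 to 0.23 (edgeR adjusted p 0.654), and 0.13 without SCC replicate 1.

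The A- and B-type cyclins mark cells in S phase, G2 and mitosis, and their promoters are textbook cases of cell-cycle control. CCAAT boxes bind the factor NF-Y, and the cell cycle genes homology region (CHR) near the start site binds the DREAM and MuvB complexes. Promoters were taken from RefSeq on GRCh38.p14, from 250 bases before to 50 bases after the start, and 7 of the 10 members matched. The A- and B-type promoters are shown because these 3 members had close log2 fold changes, none of which passed the test. A link between the matches and the levels was not tested. Capitals mark CCAAT (or ATTGG on the other strand) and the CHR word TTTGAA or its variants TTTAAA and CTTGAA, on both strands. CCNA2 lies at chr4:121823834-121824133 (minus strand), CCNB1 at chr5:69166900-69167199 (plus) and CCNB2 at chr15:59104896-59105195 (plus).
CCNA2: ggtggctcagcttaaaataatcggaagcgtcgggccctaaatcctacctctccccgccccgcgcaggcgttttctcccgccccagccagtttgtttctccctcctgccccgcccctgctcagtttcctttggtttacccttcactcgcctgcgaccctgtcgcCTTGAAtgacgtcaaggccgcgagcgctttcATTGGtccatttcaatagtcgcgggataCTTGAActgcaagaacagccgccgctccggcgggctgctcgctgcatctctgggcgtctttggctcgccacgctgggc
CCNB1: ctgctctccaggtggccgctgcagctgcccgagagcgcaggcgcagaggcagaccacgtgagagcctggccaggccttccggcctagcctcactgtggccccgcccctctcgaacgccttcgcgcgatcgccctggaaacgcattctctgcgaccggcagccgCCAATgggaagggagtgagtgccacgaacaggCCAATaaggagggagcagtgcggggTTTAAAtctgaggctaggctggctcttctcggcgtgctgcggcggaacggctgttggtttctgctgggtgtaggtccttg
CCNB2: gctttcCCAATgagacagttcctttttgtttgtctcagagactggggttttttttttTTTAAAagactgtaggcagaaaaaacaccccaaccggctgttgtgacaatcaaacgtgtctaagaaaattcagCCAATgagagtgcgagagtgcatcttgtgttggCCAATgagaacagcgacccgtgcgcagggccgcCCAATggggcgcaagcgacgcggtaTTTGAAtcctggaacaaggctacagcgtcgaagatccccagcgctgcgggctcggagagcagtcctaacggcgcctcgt
CCAAT letters occurred 1 time in the CCNA2 window, 2 times in CCNB1 and 4 times in CCNB2. In each of the 3 there was a CCAAT match beginning 54 to 56 bases before the start and a CHR match beginning 28 to 30 bases before it. The CCNE1 window also held a CHR word, TTTAAA, 28 bases before its start, and CCND3 windows held CCAAT letters 64 and 136 bases before theirs. Of the 35116 RefSeq promoters of this length, 34.6% held CCAAT and 31.2% one of the CHR words, so either match alone is common. In CCNA2 a further CHR word, 87 bases before the start, runs directly into TGACGTCA, the cyclic AMP response element. That element was in 1.85% of all promoters.

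CCNA2 (ENSG00000145386, chromosome 4, 121816444 to 121823933, minus strand), which encodes cyclin A2, was at 101, 105 and 107 CPM in SCC and at 111, 116 and 111 CPM in RCC. All SCC libraries were below all RCC libraries, by a small margin. For CCNA2 the log2 fold change was -0.11 with a 95% interval of -0.26 to 0.03 (edgeR adjusted p 0.342), and -0.04 with the GC offset. CCNB1 (ENSG00000134057, chromosome 5, 69167010 to 69178245, plus strand), which encodes cyclin B1, was at 188, 215 and 203 CPM in SCC and at 213, 224 and 216 in RCC. SCC replicate 2 lay inside the RCC range. CCNB2 (ENSG00000157456, chromosome 15, 59105078 to 59125045, plus strand), which encodes cyclin B2, was at 131, 149.6 and 156 CPM in SCC and at 150.4, 169.7 and 159 in RCC, again overlapping. The 95% interval of the log2 fold change was -0.26 to 0.04 for CCNB1 and -0.32 to 0.05 for CCNB2 (edgeR adjusted p 0.388 and 0.372). The lower ends correspond to folds of 0.833 for CCNB1 and 0.804 for CCNB2. CDK1 (ENSG00000170312), the kinase of the B-type cyclins, had a log2 fold change of -0.09 (edgeR adjusted p 0.676), and its sign turned on leaving out SCC replicate 1 (0.05) and under the GC offset (0.04).

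The direction of the values went with GC content in all members but CCNE1. All 5 members below 45% GC in their longest transcript (CCNE2, CDK6, CCNA2, CCNB1 and CCNB2, 36.9% to 44.3%) had negative log2 fold changes. Of the 5 members at 50.3% or more, 4 had positive values, and CCNE1 had a negative one. SCC replicate 1 deviated from the mean of the other 5 libraries by -0.50 to -0.12 log2 in the first set and by -0.12 to 0.48 in the second. Those 5 libraries include the RCC libraries, so this deviation also holds part of the difference between the groups. With the GC offset the first set ranged from -0.33 to -0.04 and the second from -0.24 to 0.15. The median of the 10 members was then -0.04, and it was -0.06 without SCC replicate 1. All 5 members of the first set stayed negative in both fits, and CCNE1 moved from -0.18 to -0.24 with the GC offset. The part of GC content in these directions was not tested.

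**Figure D3:**
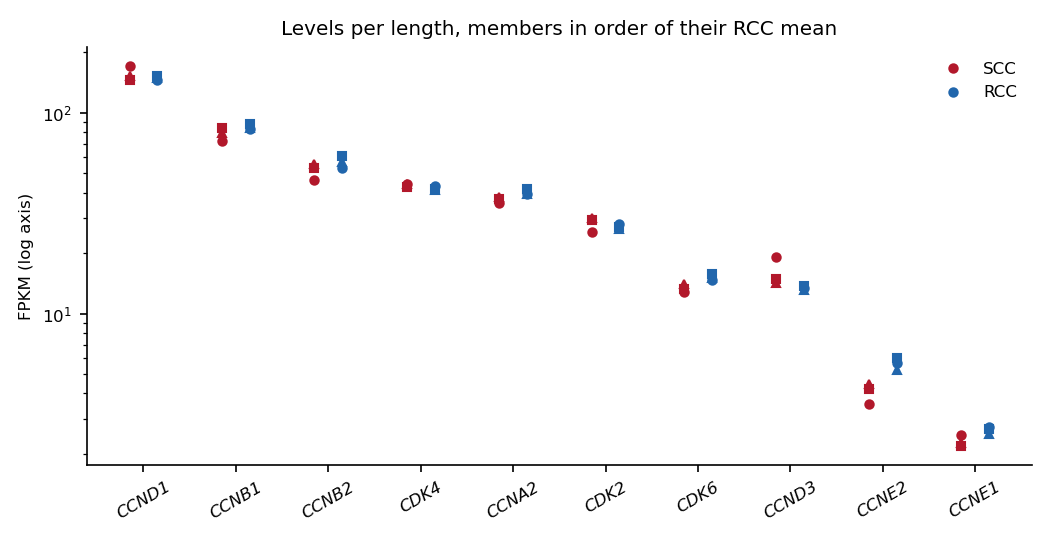
Points give the deposited FPKM (vertical log axis) of each member in each library, members ordered by their RCC mean, SCC in red and RCC in blue, with symbols for replicates. CCND1 is highest at 146 to 171 FPKM and CCNE1 lowest at 2.20 to 2.74 FPKM.

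Per length, the members spanned a wide range of levels, and the order was nearly the same in both groups. CCND1 was highest, at 156 ± 12.7 FPKM in SCC and 149 ± 3.68 in RCC (SD, n = 3). CCNB1 followed at 78.4 ± 5.79 FPKM in SCC and 84.9 ± 2.71 in RCC (SD, n = 3), then CCNB2, CDK4, CCNA2 and CDK2 in that order. CDK4 and CCNA2 overlapped in RCC (41.4 to 42.9 and 39.4 to 41.7 FPKM), and no other neighbours in the order overlapped within a group. CCND3 and CDK6 changed places. CCND3 was at 14.12 to 19.0 FPKM and CDK6 at 12.8 to 14.09 in SCC, a narrow margin, and the 19.0 was SCC replicate 1. In RCC, CDK6 was at 14.6 to 15.8 and CCND3 at 13.03 to 13.8. CCND3 and CDK6 differ in GC content (56.2% and 39.5%), and its part in their order was not tested. The E-type cyclins were lowest, CCNE2 at 4.06 ± 0.48 FPKM in SCC and 5.62 ± 0.39 in RCC, and CCNE1 at 2.32 ± 0.16 and 2.63 ± 0.11 (SD, n = 3). The deposited gene length counts all exons, 12260 bases for CDK6 against 3168 for CDK4, so these levels depend on which transcripts the cells use.

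The make-up of each cyclin or kinase family was compared as a share of its summed FPKM, as a description with no test. CCND1 made up 89.94%, 90.80% and 91.52% of D-type cyclin mRNA in SCC and 91.54%, 91.74% and 91.91% in RCC. The highest SCC library was just under the lowest RCC library. CDK4 made up 77.6%, 76.2% and 75.7% of the sum of CDK4 and CDK6 in SCC and 74.6%, 72.6% and 73.5% in RCC. The groups did not overlap, and the means differed by 2.92 percentage points. CCNE1 made up 41.4%, 34.3% and 33.7% of E-type cyclin mRNA in SCC and 32.6%, 30.7% and 32.5% in RCC. These groups did not overlap either, and SCC replicate 1 stood well above the other 5 libraries. The means differed by 4.54 percentage points, and by 2.08 without SCC replicate 1. For CCND1 the difference of -0.97 points was -0.57 without that library. CCNB1 made up 61.1%, 61.2% and 58.7% of B-type cyclin mRNA in SCC and 60.8%, 59.1% and 59.8% in RCC, with overlap. Its difference of 0.41 points was -0.0047 without SCC replicate 2. The members within the D-type, E-type and CDK4 and CDK6 families differ in GC content, and the part of GC content in these shares was not tested.

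**Figure D4:**
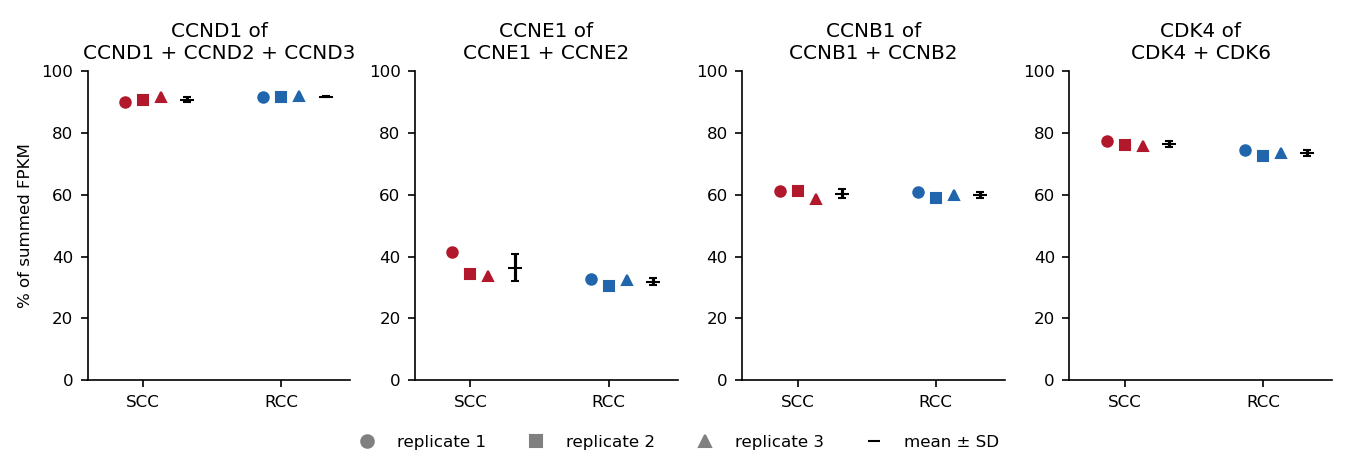
Each panel gives the share (vertical axis, % of summed FPKM, 0 to 100) of 1 gene in its family for each SCC and RCC library, with symbols for replicates and the mean ± SD beside them. CDK4 is at 75.7% to 77.6% in SCC and 72.6% to 74.6% in RCC.

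Around the members, single genes of the machinery passed the test, and the medians of their lists lay between -0.04 and 0.23. Of 18 tested other cyclins, 1 was called higher and 1 lower (1.69% and 0.378% of all tested genes). The list's median log2 fold change was 0.00. CCNL1, which encodes cyclin L1, a cyclin of RNA splicing, averaged 171 ± 16.6 CPM over the SCC libraries and 84.5 ± 5.10 over the RCC libraries (SD, n = 3; log2 fold change 1.02, edgeR adjusted p 1.1e-04). CCNT1, which encodes cyclin T1, the partner of CDK9 in transcription elongation, averaged 47.4 ± 0.63 CPM over the SCC libraries and 60.1 ± 2.31 over the RCC libraries (SD, n = 3). Its log2 fold change was -0.34 (edgeR adjusted p 0.038), and 8 of 17 alternatives lost the call. Dropping SCC replicate 3 gave an adjusted p of 0.123, and dropping RCC replicate 1, 2 or 3 gave 0.209, 0.126 and 0.162. The GC offset added a call of CCNG2 as higher. The fit without SCC replicate 1 added that call too and CCNJ as lower, which made 2 called in each direction. Neither CCNL1 nor CCNT1 has a main role in the order of cell-cycle phases.

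Of 18 tested other CDKs, edgeR called 0, as did DESeq2 and limma. An unadjusted p under 0.05 was reached by 2 with higher and 0 with lower levels in SCC (11.4% and 8.27% of all tested genes). CDK11B had the smallest p (log2 fold change 0.21, edgeR adjusted p 0.162), and its counts are uncertain because CDK11A is a near-identical copy. Among 9 tested CDK inhibitors and RB family genes, 2 were called higher and 0 lower (1.69% and 0.378% of all tested genes). The list median was -0.04. CDKN1A, which encodes the CDK inhibitor p21, had a log2 fold change of 0.69 and was called in all 17 alternatives. CDKN2D, which encodes p19, an inhibitor of CDK4 and CDK6, averaged 37.3 ± 3.39 CPM over the SCC libraries and 26.6 ± 2.47 over the RCC libraries (SD, n = 3; log2 fold change 0.49, edgeR adjusted p 0.035). For CDKN2D, 8 of 17 alternatives lost the call. The GC offset gave 0.29 (adjusted p 0.067), and the call was also lost on dropping SCC replicate 3 (0.072) or any RCC library (0.198, 0.067 and 0.183 for replicates 1 to 3). Limma did not call it on log2(FPKM + 1) (adjusted p 0.081), on log2(FPKM + 0.1) (0.085) or on log2(FPKM + 1) without a filter (0.261).

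SKP2 encodes the F-box protein that targets the CDK inhibitor p27 and free cyclin E for destruction. It was the 1 gene called among 17 genes of ubiquitin-mediated turnover, against 2.07% of all tested genes. Its means were 54.6 ± 1.69 CPM over the SCC libraries and 77.4 ± 4.28 over the RCC libraries (SD, n = 3). That is a log2 fold change of -0.50 (standard error 0.07, edgeR adjusted p 0.0051). Like CCNE2 it was lower in every SCC library than in any RCC library. SKP2 lost its call on dropping RCC replicate 1 (adjusted p 0.064) or 2 (0.056), and by limma on log2(FPKM + 1) without a filter (0.073). FZR1, which encodes an activator of the anaphase-promoting complex, was called higher under the loosest filter, 1 count in all. Of 11 genes of CDK phosphorylation, folding and assembly, the main edgeR fit, DESeq2 and limma called 0. The kinase genes PKMYT1 and WEE1, whose products inhibit CDK1, were each called higher in 1 alternative, PKMYT1 under the loosest filter and WEE1 with the replicate block and GC offset together. At an unadjusted p under 0.05 there were 1 higher and 1 lower (11.4% and 8.27% of all tested genes). CDC25B, a phosphatase that activates CDKs, had the smallest p (log2 fold change 0.20, edgeR adjusted p 0.153).

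**Figure D5:**
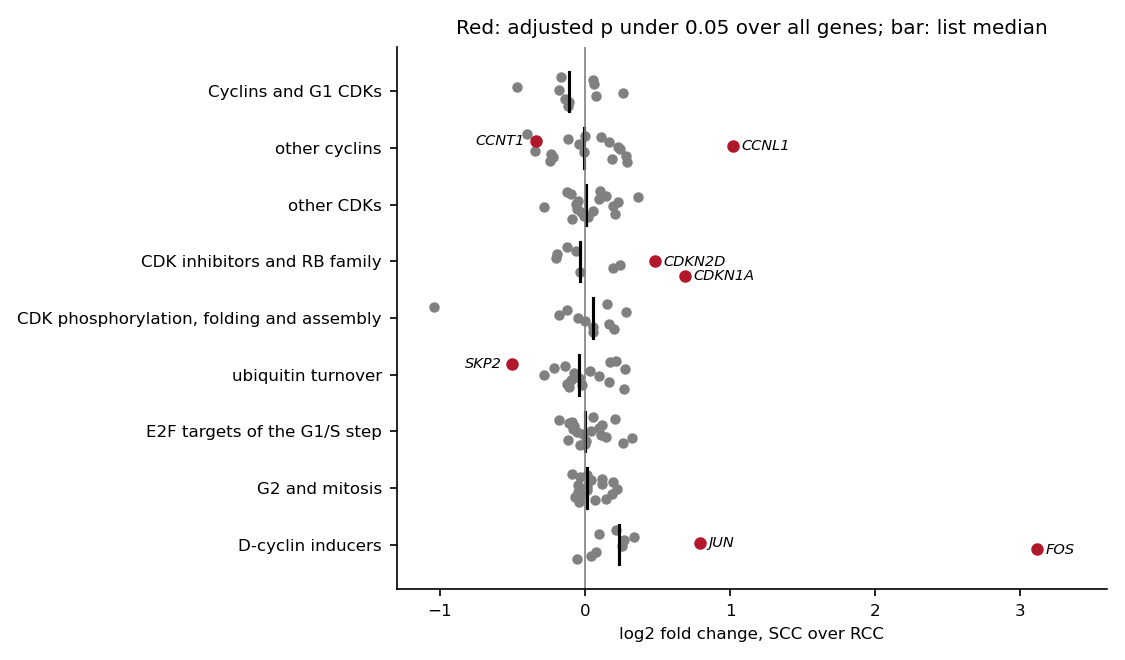
Each point is 1 tested gene, by list (rows) and log2 fold change (horizontal axis, SCC over RCC), red where the edgeR adjusted p is under 0.05, with a black bar at each list's median. The members' median is -0.11 and those of E2F targets and of G2 and mitosis genes are 0.00 and 0.02.

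The genes that act downstream and upstream of the members were read the same way. Of 20 E2F target genes of the G1/S step, the main edgeR fit called 0, as did DESeq2 and limma. An unadjusted p under 0.05 was reached by 2 with higher levels and 1 with a lower level in SCC (11.4% and 8.27% of all tested genes). The list's median log2 fold change was 0.00. E2F1 had the smallest p (log2 fold change 0.32, edgeR adjusted p 0.173) and stood at 0.10 with the GC offset. It was called higher under the loosest filter (adjusted p 0.010), and without SCC replicate 2 (0.049), and PCNA was called higher without SCC replicate 1. Of 18 genes of G2 and mitosis, the same tools called 0. At an unadjusted p under 0.05 there were 2 with higher levels and 0 with lower, against the same shares of all tested genes. FOXM1 had the smallest p (log2 fold change 0.22, edgeR adjusted p 0.200). Of 10 inducers of D-type cyclins, 2 were called higher and 0 lower (1.69% and 0.378% of all tested genes). The list median was 0.23, and it was 0.07 without SCC replicate 1. The 2 were FOS and JUN, subunits of AP-1, which is a known activator of CCND1 transcription, with log2 fold changes of 3.12 and 0.80. CCND1 itself had the value of 0.08 given above. JUN was not called by limma on log2(FPKM + 1) without a filter (adjusted p 0.108). The number called higher was 4 (FOS, JUN, MYC and RELA) under the GC offset, with or without the replicate block, and also on dropping SCC replicate 1. It was 3 without SCC replicate 2 (RELA added) and 5 under the loosest filter (MYC, RELA and FOSL1 added).

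The consensus AP-1 site TGACTCA, read on both strands, was in 0 of the 10 RefSeq promoter windows that matched 7 members (CCNA2, CCNB1, CCNB2, CCND3, CCNE1, CDK4 and CDK6). It was in 4.95% of all promoters, so its absence from 10 windows carries little information. No window matched CCND1, so the promoter of CCND1 was not read. The E box CACGTG, which MYC binds, occurred 3 times in the CDK4 window (chr12:57752261-57752560, minus strand), 1 time in the CCNB1 window and 1 time in a CDK6 window, and in 7.26% of all promoters. The CDK4 window is shown because CDK4 is a known MYC target and had little difference between the groups, with the E boxes in capitals.
CDK4: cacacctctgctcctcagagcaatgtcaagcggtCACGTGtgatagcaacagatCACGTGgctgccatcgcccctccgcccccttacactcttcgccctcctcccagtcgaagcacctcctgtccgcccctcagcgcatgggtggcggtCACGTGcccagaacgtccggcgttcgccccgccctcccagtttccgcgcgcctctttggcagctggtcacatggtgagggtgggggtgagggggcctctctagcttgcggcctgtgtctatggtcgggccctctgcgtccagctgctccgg
MYC averaged 147 ± 14.0 CPM over the SCC libraries and 122 ± 3.43 over the RCC libraries (SD, n = 3; log2 fold change 0.27, edgeR adjusted p 0.105), a gene chosen here after its values were seen. It was called higher with the GC offset, without SCC replicate 1 and under the loosest filter.

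The genes whose log2 CPM followed CCND1 most closely over the 6 libraries, among 10912 genes at a mean of 5 CPM or more, were MYO1C, ZNF787 and RCCD1 (Pearson r 0.998, 0.996 and 0.996). Those closest to CCNB1 included ECHDC1 and SRI (0.998 and 0.996). With 6 libraries such values are common: 394 genes had r above 0.95 with CCND1 and 401 with CCNB1. The first 3 genes have GC contents of 58.9% to 70.3% and ECHDC1 and SRI 37.6% and 38.2%. The part of GC content in these likenesses was not tested.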

How the data were processed

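Whole-number counts per gene and FPKM per gene were deposited by the authors, one column per library, and HISAT2 2.0.5 and featureCounts 1.5.0-p3 are named in the submitters' processing notes. The genome build and use of strand are not given in the sources used here. IDs and positions of all 58735 genes matched GENCODE release 29 (GRCh38). Deposited FPKM equalled the count over length and a constant per library within 1%. Counts were filtered with filterByExpr (minimum count 10), TMM-scaled and tested with edgeR 4.0.16 in R 4.3.3 (glmQLFit, glmQLFTest, group alone), two-sided, with Benjamini-Hochberg adjustment over all tested genes. Standard errors are the log2 fold change over the square root of F, and 95% intervals use the t distribution of the fit. The fit was tested on simulated data.

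Alternatives were DESeq2 1.42.0, limma 3.58.1 (trended) on the log2 of FPKM plus a pseudocount of 1 or 0.1 where 3 libraries reached FPKM 1, the former also unfiltered, other scalings and filters, the replicate number as a block, an offset for GC content (lowess, span 0.3), and each library left out. GC content is that of a gene's longest GENCODE transcript. Members, lists and alternatives were chosen with earlier results of these data known. The naming rule took all members, CDK1, CCND2, CDKN1A, up to 4 called genes of each list or else the gene of smallest p, and the 3 genes most like CCND1 and CCNB1. A gene this rule took is not reported here. Other genes named were chosen after their values were seen. Libraries are separate biological replicates per the labels, and 3 per group limit the precision.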

Additional observations from a re-analysis of the deposited data

How the results depend on the processing

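CCNE2 was the only member called under any of the 17 alternatives, always as lower, so that members called lower numbered 1 with DESeq2, upper-quartile scaling, every gene with at least 1 count, the replicate block, the GC offset, and the replicate block with GC offset, and 0 to 1 across the 6 fits that each left out a library. Members called higher numbered 0 in all 17. The log2 fold change of CDK4 turned to -0.0081 with the GC offset and -0.0083 with the block added. That of CDK1 turned to 0.037 and 0.033 in these fits, and ranged from -0.20 to 0.054 across the fits that each left out a library, positive without SCC replicate 1. The other 9 members kept their sign. The difference in family share, SCC minus RCC in percentage points, ranged over the fits that each left out a library from 2.08 to 5.93 for CCNE1, -1.36 to -0.57 for CCND1, 2.38 to 3.44 for CDK4 and -0.0047 to 1.23 for CCNB1, which turned its sign without SCC replicate 2.

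Against 268 genes called higher and 60 lower in all, DESeq2 called 393 and 120. The test of every gene with at least 1 count called 995 and 315. Limma on log2(FPKM + 1) called 130 and 36, on log2(FPKM + 0.1) 117 and 34, and on log2(FPKM + 1) without a filter 48 and 1. The GC offset gave 523 and 245, with 68.1% higher against 81.7%, and why these counts differ was not tested. Deviations of libraries with the same replicate number correlated at -0.01, 0.02 and -0.08, and not every library correlated best with its own number. These deviations were not corrected for GC content, by which SCC replicate 1 stood apart. They therefore cannot decide whether the numbers pair the libraries, and the main fit used group alone. The replicate block gave 350 higher and 106 lower genes, and with the GC offset 621 higher and 432 lower. CCNT1 was not called with the replicate block (adjusted p 0.054). Leaving out 1 library gave 99 to 642 higher genes and 8 to 343 lower ones. An arm of 2 libraries remains in such fits. CCNE1, with 406 and 418 counts per group, is the member that depth limits most.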
